A study of Mus musculus with 9 samples.

Results

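The MCM (minichromosome maintenance) helicase subunits Mcm2 to Mcm10 are 9 of the 54532 mouse genes listed with a level in every library. They were chosen by gene symbol alone, with no measured value in the rule, though earlier results of these data were known by then. All 9 were among the 11727 genes that entered the tests because 3 or more libraries had a level of 1 FPKM or more. FPKM is the number of sequenced fragments on a gene, scaled to the length of the gene and to the depth of its library. The cells were B.END3, an immortalized endothelial line derived from mouse brain, with the strain given as C57BL/6, grown to a monolayer in DMEM with FBS. Paired-end RNA sequencing covered 3 libraries in each of 3 groups: untreated cells (Ctrl), cells given photodynamic therapy (PDT) with a light dose of 10 J/cm2 (Ep1), and cells given PDT with 20 J/cm2 (Ep2). PDT here was 90 min with the photosensitizer porfimer sodium at 300 µg/mL, a porphyrin that makes reactive oxygen species under red light, followed by laser light of 635 nm at 100 mW/cm2. The labels call Ctrl only untreated, so an effect of the photosensitizer alone or of the light alone cannot be told apart from that of PDT. All groups are 1 cell line, and the labels do not say whether replicates were separate cultures, so p-values measure the spread between these libraries, which may be technical.

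MCM proteins open the DNA double helix in front of the replication fork. Mcm2 to Mcm7 form a ring with 1 copy of each subunit, which is loaded onto origins in G1 by the origin recognition complex, Cdc6 and Cdt1, and becomes an active helicase in S phase when Cdc45 and the GINS complex join it. Mcm10 is a separate protein that helps to start the assembled helicase. Mcm8 and Mcm9 form a different helicase that acts in homologous recombination, the repair of broken DNA by copying from an intact partner. The genes of the ring are textbook targets of E2F, the family of transcription factors that switch on S phase genes, and their transcripts are abundant in dividing cells and low in resting ones.

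Stretches of the promoters are shown because 8 of the 9 genes shifted together at the high dose and because matches to the E2F motif differ among them. RefSeq windows on GRCm38.p6, from 250 bases before the annotated start to 50 bases after it, were found for 8 of the 9 genes, 2 of them for Mcm7, and Mcm4 had none. Both strands were searched for the E2F octamers TTTGGCGC, TTTCGCGC, TTTCCCGC and TTTGCCGC, for CCAAT and for the CHR element TTTGAA, which is known from cell cycle promoters. The first 5 sequences below hold octamers, printed in capitals, and the last 3 are the 100 bases before the start of the genes without one. All are written 5′ to 3′ on the strand of the gene.
Mcm3, chr1:20820267-20820294, minus strand: gGCGGGAAAacttgggaagtTTTGGCGC
Mcm5, chr8:75109326-75109397, plus strand: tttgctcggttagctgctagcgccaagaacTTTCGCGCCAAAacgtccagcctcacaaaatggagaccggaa
Mcm6, chr1:128359715-128359845, minus strand: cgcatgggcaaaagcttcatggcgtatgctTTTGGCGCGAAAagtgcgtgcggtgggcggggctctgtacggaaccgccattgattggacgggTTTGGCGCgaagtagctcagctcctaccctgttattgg
Mcm7, chr5:138171854-138172078, minus strand: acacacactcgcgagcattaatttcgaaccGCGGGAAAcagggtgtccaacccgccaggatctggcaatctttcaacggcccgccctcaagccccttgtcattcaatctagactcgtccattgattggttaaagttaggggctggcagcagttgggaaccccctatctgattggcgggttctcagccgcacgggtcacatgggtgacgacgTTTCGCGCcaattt
Mcm8, chr2:132816160-132816187, plus strand: agcagaagcgcgtcatagacGCGCCAAA
Mcm2, chr6:88898781-88898880, minus strand: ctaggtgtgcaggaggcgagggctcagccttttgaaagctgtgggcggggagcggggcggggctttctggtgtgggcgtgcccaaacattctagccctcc
Mcm10, chr2:5012792-5012891, minus strand: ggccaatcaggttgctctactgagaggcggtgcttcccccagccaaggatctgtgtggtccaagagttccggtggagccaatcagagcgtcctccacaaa
Mcm9, chr10:53629958-53630057, minus strand: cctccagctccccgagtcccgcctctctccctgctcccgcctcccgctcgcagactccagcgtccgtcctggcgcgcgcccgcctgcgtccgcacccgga

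An octamer stood in windows of 5 genes, Mcm3, Mcm5, Mcm6, Mcm7 and Mcm8, compared with 2.26% of all 32851 windows of this length. In Mcm5 the octamers TTTCGCGC and GCGCCAAA shared 4 bases, and Mcm6 held such an overlapping pair beginning 110 bases before the start and a single octamer beginning 47 bases before it. In Mcm3 and Mcm8 the matches lay after the start. The window of Mcm10 ended after the start in TTTGGCG, the opening letters of the octamer TTTGGCGC, so its edge may cut off a match. The other Mcm7 window, at chr5:138171217-138171516, had no octamer. CCAAT occurred in every window of these 8 genes and in 37.4% of all windows, and the CHR letters occurred only in that of Mcm2, against 17.9% of all. A match is a string of letters and not a measured binding site, and the windows of Mcm2, Mcm9 and Mcm10 say nothing of E2F sites outside them.

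Fragment totals lay between 16240688 and 19509225 per library, and each gene of the ring had between 2383 and 7675 fragments in every library. Mcm9 was the most thinly covered with Mcm8, at 299 to 358 fragments for Mcm9 in Ctrl and Ep2 and as few as 226 for Mcm8 in Ep2. The endothelial label was poorly matched by the transcriptome. Pecam1, Kdr, Tek, Tie1, Erg, Emcn, Cldn5 and Vwf, which define endothelial cells, stayed below 1 FPKM in every library, with no fragment at all on Erg and Emcn, and only 3 of 12 endothelial markers entered the tests. The keratins Krt8 and Krt18 were abundant, and the summed level of the 5 epithelial markers was 859 to 902 FPKM in Ctrl, 798 to 860 in Ep1 and 900 to 1049 in Ep2. Nearly all of that sum came from the keratins. Epcam reached at most 2.03 FPKM in any library, and Cdh1 and Cldn4 at most 0.103 and 0.177 FPKM. Pericyte and leukocyte markers summed to less than 1 FPKM in every library and 4 neuronal markers to 1.65 to 2.70 FPKM, while the astrocyte sum, nearly all of it from the glycolytic enzyme gene Aldoc, was 31.4 to 35.7 FPKM in Ctrl and 65.0 to 73.0 FPKM in Ep2. Of the 3 tested epithelial markers Krt18 and Epcam rose in Ep2 as the MCM genes fell, and Krt8 was at 0.04 on the log2 scale (adjusted p = 0.530, limma). Of the 3 tested endothelial markers Flt1 rose, while Egfl7 and Eng were at -0.25 (adjusted p = 0.228) and -0.13 (adjusted p = 0.274). Aldoc rose too, and the part of any change in cell makeup in the results below was not tested.

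The first question was how the dividing-cell helicase responded to the dose of light. At 20 J/cm2, 8 of the 9 genes fell against Ctrl and Mcm9 did not, and at 10 J/cm2 the summed level of the ring genes was close to that of Ctrl. Summed over Mcm2 to Mcm7, the level was 458 ± 13.1 FPKM in Ctrl (SD, n = 3), 461 ± 12.5 FPKM in Ep1 and 271 ± 4.08 FPKM in Ep2, which is 100.7% and 59.2% of Ctrl. Every Ep2 library, at 266 to 274 FPKM, lay far below every other library, and the ranges of Ctrl (444 to 470 FPKM) and Ep1 (447 to 469 FPKM) overlapped. In bulk RNA, fewer cells in S phase and less MCM RNA in each cell cannot be told apart.

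**Figure D1:**
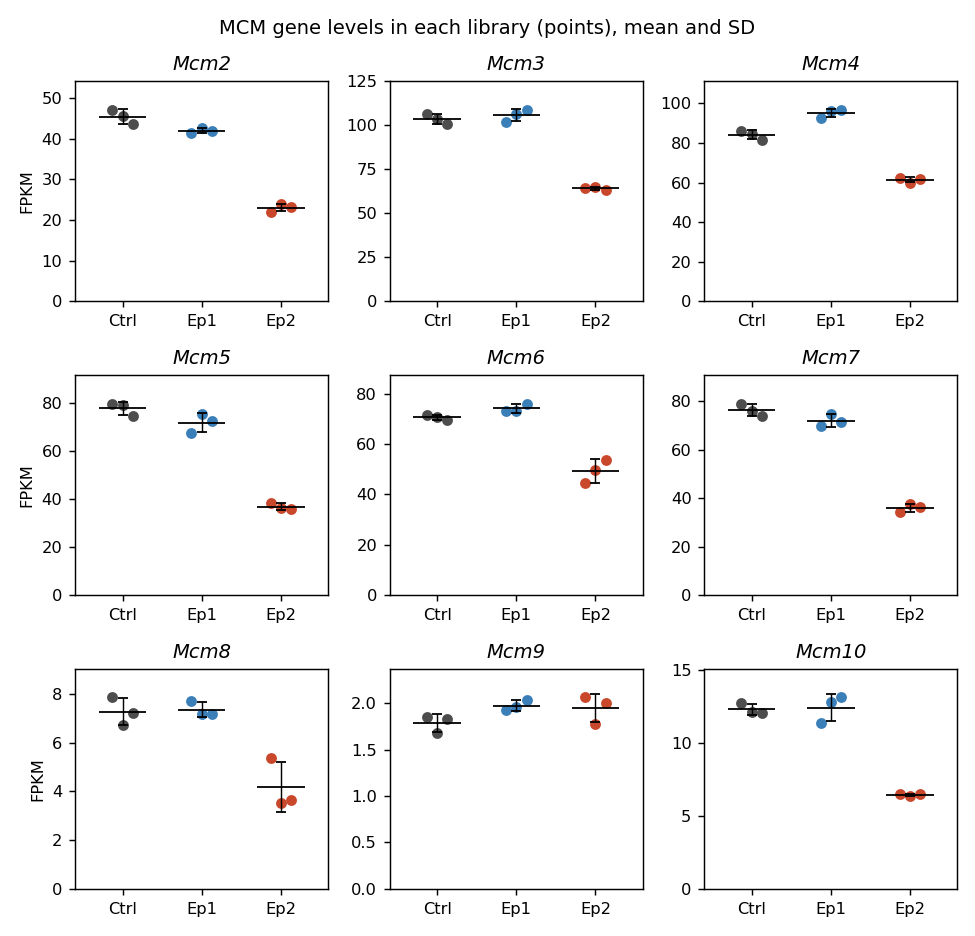
Level of each MCM gene in FPKM (y axis, from 0 and scaled per gene) in the 3 libraries of Ctrl, Ep1 and Ep2 (points), with the mean (line) and SD (bar). In 8 panels the Ep2 points lie below all others, and in the Mcm9 panel, at 1.68 to 2.06 FPKM, the Ep2 and Ctrl points overlap.

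Among the ring genes, Mcm7 and Mcm5 fell most. Mcm7 (ENSMUSG00000029730, chr5:138164583-138172422) measured 79.1, 76.1 and 74.1 FPKM in Ctrl, 69.8, 74.8 and 71.6 in Ep1 and 34.3, 37.5 and 36.4 in Ep2. The Ep2 libraries were near one another and below all others, and the mean fell by 52.8%. On the log2(FPKM + 1) scale, which understates changes of low genes, the change from Ctrl to Ep2 was -1.06 ± 0.05 (SE) with an adjusted p of 1.84e-06 by limma. Mcm5 (chr8:75109569-75128439), which closes the ring beside Mcm2, measured 79.9, 79.2 and 74.6 FPKM in Ctrl, 67.7, 75.4 and 72.7 in Ep1 and 38.5, 36.2 and 35.9 in Ep2. Its mean fell by 52.6%, and the log2 fold change was -1.06 ± 0.05 (adjusted p = 2.17e-06). Both genes lay below Ctrl in each Ep2 library. Like Mcm4 and Cdc6, which are described below, both are among the hub genes that the study chose from these same libraries. The values of these genes here are therefore not independent evidence.

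Mcm2 (chr6:88883474-88898780), the subunit that also binds histones at the fork, measured 47.1, 45.6 and 43.6 FPKM in Ctrl, 41.4, 42.5 and 41.9 in Ep1 and 22.1, 23.8 and 23.1 in Ep2. It is the one ring gene whose Ep1 libraries also all lay below Ctrl, though its Ep1 change of -0.11 did not pass the test (adjusted p = 0.130, limma). Against Ctrl, its Ep2 mean fell by 49.3% (log2 fold change -0.95 ± 0.04, adjusted p = 1.91e-06). Mcm3 (chr1:20802968-20820312) had the highest FPKM of the family, 106, 104 and 101 in Ctrl, 102, 106 and 109 in Ep1 and 64.5, 64.8 and 63.0 in Ep2. Ctrl and Ep1 overlapped, the Ep2 libraries lay within 2 FPKM of one another, and the mean fell by 38.0% (log2 fold change -0.68 ± 0.04, adjusted p = 3.4e-06, limma).

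Mcm6 and Mcm4 fell least in the ring. Mcm6 (chr1:128331590-128359664) measured 71.7, 70.6 and 69.5 FPKM in Ctrl, 73.0, 73.3 and 76.1 in Ep1 and 44.5, 49.8 and 53.9 in Ep2. Its Ep2 libraries were the most spread of the ring, at 49.4 ± 4.69 FPKM (SD, n = 3), but all lay below Ctrl (log2 fold change -0.51 ± 0.06, adjusted p = 0.000127, limma). Mcm4 (chr16:15623897-15637400), one of the subunits with the helicase motor activity, measured 86.0, 84.8 and 81.6 FPKM in Ctrl, 92.8, 96.2 and 96.8 in Ep1 and 62.4, 59.9 and 61.9 in Ep2. It was the one member called at 10 J/cm2, where every library lay above Ctrl (0.18 ± 0.04 on the log2 scale, adjusted p = 0.0218), and it then fell below Ctrl at 20 J/cm2 (-0.45 ± 0.04, adjusted p = 1.95e-05). The Ep1 rise of Mcm4 was not kept under every setting. Its adjusted p became 0.0578 with no filter on low genes, 0.106 once length and GC content were corrected for, and up to 0.0913 without 1 library, and it was lost without Ctrl replicate 1, 2 or 3 and without Ep1 replicate 2 or 3.

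Outside the ring, Mcm10 fell with it. Mcm10 (chr2:4989714-5012791) measured 12.7, 12.1 and 12.0 FPKM in Ctrl, 11.4, 12.8 and 13.1 in Ep1 and 6.46, 6.34 and 6.47 in Ep2. Its Ep2 libraries hardly differed from one another, and the mean fell by 47.7% (log2 fold change -0.84 ± 0.06, adjusted p = 6.32e-06, limma). The partners of the recombination helicase parted. Mcm8 (chr2:132816141-132844197) measured 7.85, 6.74 and 7.21 FPKM in Ctrl, 7.71, 7.15 and 7.17 in Ep1 and 5.36, 3.54 and 3.66 in Ep2, with Ep2 replicate 1 well above its fellows and still below every Ctrl library. Its log2 fold change was -0.69 ± 0.12 (adjusted p = 0.00101, limma), and -0.84 without Ep2 replicate 1.

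Mcm9 (chr10:53536315-53630439) measured 1.85, 1.68 and 1.83 FPKM in Ctrl, 1.93, 1.96 and 2.03 in Ep1 and 2.06, 1.78 and 2.0 in Ep2. The Ep2 and Ctrl libraries overlapped, and the log2 fold change was 0.08 with a 95% interval from -0.07 to 0.23 (adjusted p = 0.335). The interval leaves out a fall of the size seen in Mcm8, although the pair was measured at different depths and the pseudocount of 1 shrinks a change more at the level of Mcm9. Asf1a, a histone chaperone gene on the other strand, shares 12469 bases of its span with Mcm9, and whether fragments were counted by strand is not given in the sources used here.

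Against Ctrl, the 8 genes that fell at 20 J/cm2 compare with 29.3% of all tested genes called lower, and the 6 that also passed the fold threshold of the study, an absolute log2 fold change above 0.6, with 5.87%. In the same 8 genes every Ep2 library lay below every Ctrl library, which was so for 32.7% of tested genes. The median log2 fold change of the 9 genes was -0.69, beside -0.03 for all tested genes. At 10 J/cm2, 1 gene was higher, against a background of 6.32%, and none was lower, against 4.97%. At an unadjusted p below 0.05, Mcm2 and Mcm4 passed at that dose, and voom on recovered fragments called Mcm4 alone. The share of all tested genes that passed by either of these measures was not computed, so neither count has a background. The median at that dose was 0.01. Between the doses, a comparison without the Ctrl libraries, 8 of 9 genes were lower in Ep2 than in Ep1, against 25.2% of tested genes, and 7 of them passed the fold threshold, against 3.97%. The median of that comparison was -0.71. Its values ran from -0.98 in Mcm7 (adjusted p = 4.12e-06) to -0.58 in Mcm6 (adjusted p = 9.96e-05) among the ring genes, and were -0.85 in Mcm10, -0.70 in Mcm8 and -0.01 in Mcm9 (adjusted p = 0.890, 95% interval -0.16 to 0.14).

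**Figure D2:**
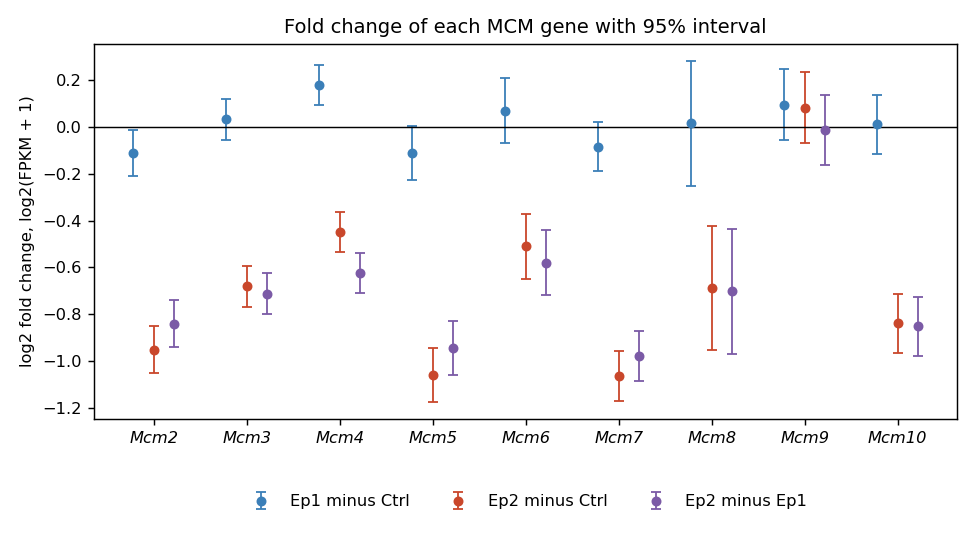
Log2 fold change of each MCM gene on the log2(FPKM + 1) scale (y axis) for Ep1 minus Ctrl, Ep2 minus Ctrl and Ep2 minus Ep1, with 95% intervals from the limma model (bars, n = 3 libraries a group). The Ep1 estimates lie near 0, with Mcm4 at 0.18, while the estimates of both Ep2 comparisons lie between -1.06 and -0.45 except in Mcm9.

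The ring needs its protein subunits in equal number, so the balance among the RNA levels of the 6 genes was compared next. RNA levels do not give the amounts of the proteins, which these libraries do not measure. Within each library, the mean log2 level of Mcm2 to Mcm7 was subtracted from the level of each gene, which removes any change the 6 share. Mcm4 gained most, by 0.34 from Ctrl to Ep2, followed by Mcm6 with 0.27 and Mcm3 with 0.10. Mcm7 lost most, at -0.28, followed by Mcm5 with -0.27 and Mcm2 with -0.17. For each of the 6 genes the 3 groups differed with p = 0.00357 in an exact permutation test over the 280 ways to part 9 libraries into 3 groups of 3, which is the smallest p this design can give, and the value adjusted over the 6 genes was 0.00357 too. The 6 balances sum to 0 in each library and so are not independent of one another. The balance was not computed for other sets of genes, so whether such calls are particular to the ring is not known. In Ep2 against Ctrl, 29.3% of all tested genes were called lower and 23.9% higher. Those are limma calls on the level itself, so they are not a background for the balance calls.

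Ep1 lay on the same side as Ep2 for every ring gene, although the sum of the ring was at the level of Ctrl. The Ep1 shifts were 0.18 for Mcm4, 0.07 for Mcm6, 0.04 for Mcm3, -0.08 for Mcm7, -0.11 for Mcm5 and -0.11 for Mcm2, and in each of the 6 genes all Ep1 libraries lay on one side of all Ctrl libraries. Both sets of shifts are taken from the same Ctrl libraries, and no share of other genes on this measure stands beside the count of 6. As a share of the ring's FPKM, Mcm4 measured 18.4% in Ctrl, 20.7% in Ep1 and 22.7% in Ep2, and Mcm7 measured 16.7%, 15.6% and 13.3%. The ratio of the highest to the lowest ring gene was 2.25 to 2.31 across the Ctrl libraries, 2.46 to 2.59 in Ep1 and 2.72 to 2.93 in Ep2. These ratios rest on the gene lengths of the files. Scaled to canonical transcripts, as described below, the highest and lowest ring means were 114 and 58.7 FPKM in Ctrl. They were 116 and 62.4 FPKM in Ep1 and 77.6 and 32.0 FPKM in Ep2. On that scale the Ep1 widening was not seen, while that of Ep2 was.

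The direction of the shift also went with base composition. The transcripts of Mcm4, Mcm6 and Mcm3, which gained, hold 43.1%, 47.6% and 49.3% G and C, and those of Mcm5, Mcm7 and Mcm2, which lost, 50.8%, 53.4% and 55.1%. After the libraries were corrected for the length and the GC content of genes, a setting added once the shifts had been seen, the shifts from Ctrl to Ep2 were 0.26 for Mcm4, 0.24 for Mcm6, 0.11 for Mcm3, -0.14 for Mcm2, -0.22 for Mcm7 and -0.25 for Mcm5, and all 6 genes still passed the exact permutation test at adjusted p-values of at most 0.00714. The Ep1 shifts were smaller after the same correction, at 0.11 for Mcm4, 0.05 for Mcm6, 0.04 for Mcm3, -0.03 for Mcm7, -0.08 for Mcm2 and -0.09 for Mcm5, and the Ep1 libraries of Mcm7 then overlapped Ctrl while those of the other 5 genes did not.

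**Figure D3:**
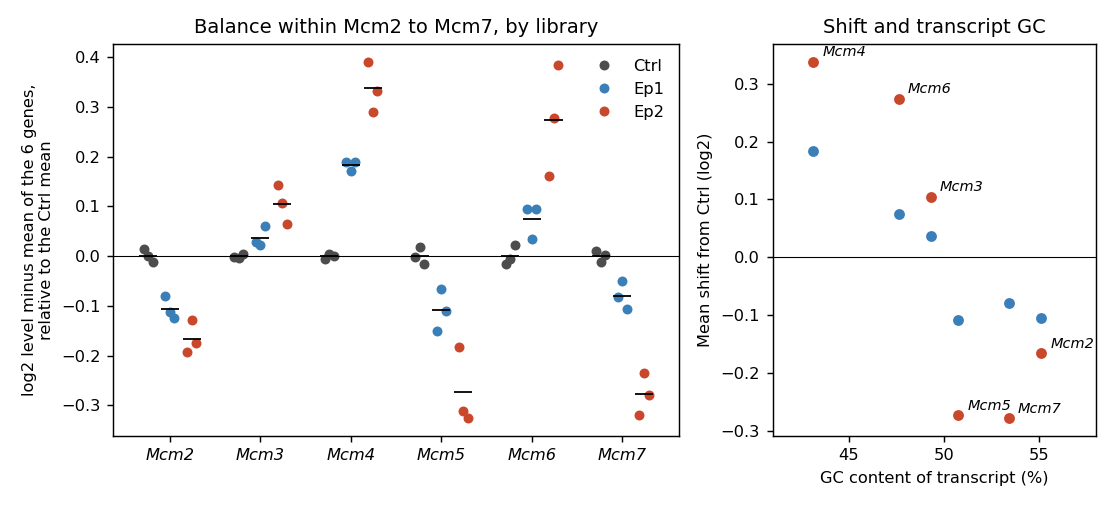
Left, the log2 level of each ring gene minus the mean of the 6 genes in the same library, set relative to the Ctrl mean (y axis), with 1 point a library and lines at group means. Mcm4 rises to 0.34 and Mcm7 falls to -0.28 in Ep2, with Ep1 in between for each gene. Right, the mean shift from Ctrl (y axis, log2) against the GC content of the transcript (x axis, percent) for Ep1 and Ep2 in the same colours, where the 3 genes below 50% G and C lie above 0.

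The order of levels among the genes depends on the length used to scale them. With the gene lengths of the files, Ctrl ran from Mcm3 at 103 ± 2.79 FPKM (SD, n = 3) through Mcm4, Mcm5, Mcm7 and Mcm6 to Mcm2 at 45.4 ± 1.76 FPKM, then Mcm10, Mcm8 and Mcm9. Of neighbours in that order, only Mcm5 and Mcm7 had overlapping ranges, 74.6 to 79.9 and 74.1 to 79.1 FPKM. In Ep2, Mcm6 (49.4 ± 4.69 FPKM) stood above Mcm5 (36.9 ± 1.42) and Mcm7 (36.1 ± 1.64). The files give Mcm2 a length of 6956 bases and Mcm3 one of 3752 bases, while their canonical transcripts on the reference annotation are 3371 and 5432 bases long. Scaled to canonical transcripts, an alternative added after the values were seen, Mcm7 and Mcm6 came first in Ctrl and Mcm3 followed Mcm2, and Mcm4 dropped from place 2 to place 6, so that the place of every ring gene depends on the scale. That Mcm10, Mcm8 and Mcm9 came last, in this order, held in Ctrl on both.

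Some MCM genes begin back to back with an unrelated gene, within 1000 bases on the other strand. Of 3 such neighbours only Prkdc beside Mcm4 was called at 20 J/cm2 against Ctrl, a share near the 29.3% of all tested genes called lower. Trmt6, which encodes part of a tRNA methyltransferase and starts 86 bases from Mcm8, measured 19.2, 18.2 and 19.7 FPKM in Ctrl. It measured 20.3, 21.0 and 21.6 FPKM in Ep1 and 18.5, 18.6 and 17.9 in Ep2. Its Ctrl and Ep2 ranges overlapped (log2 fold change -0.05, adjusted p = 0.385, limma). All Ep1 libraries of Trmt6 lay above Ctrl, a change not called (0.13, adjusted p = 0.0800, limma). It was lower in Ep2 than in Ep1 (-0.18, adjusted p = 0.00859, limma). The log2 level of Mcm8 minus that of Trmt6 in the same library averaged -1.28 in Ctrl (SD 0.08, n = 3), -1.40 in Ep1 (SD 0.09) and -1.92 in Ep2 (SD 0.26), a difference among groups with p = 0.0107 in an exact permutation test and 0.0161 after adjustment over 3 pairs. Ap4m1, an adaptor complex gene 420 bases from the start of Mcm7, measured 3.11, 3.11 and 3.02 FPKM in Ctrl, 3.05, 3.33 and 2.96 in Ep1 and 3.13, 2.56 and 2.80 in Ep2. The difference between Mcm7 and Ap4m1 went from 4.25 ± 0.03 in Ctrl to 4.15 ± 0.04 in Ep1 and 3.28 ± 0.17 in Ep2 (exact permutation p = 0.00357, adjusted 0.0107). The annotated spans of that pair overlap by 421 bases, and Mcm7 also shares 64 bases with Cops6, so fragments there may be split.

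Mcm4 and its neighbour Prkdc, the catalytic subunit of the DNA-dependent protein kinase, which starts 466 bases away, both fell at 20 J/cm2. Prkdc measured 2.27, 2.33 and 2.52 FPKM in Ctrl, 2.19, 1.97 and 2.16 in Ep1 and 1.36, 1.74 and 1.98 in Ep2 (log2 fold change -0.33 ± 0.09, adjusted p = 0.0121). The difference within a library was 4.66 ± 0.09 in Ctrl, 4.95 ± 0.08 in Ep1 and 4.54 ± 0.18 in Ep2, so it was widest at the low dose (exact permutation p = 0.0321, adjusted 0.0321). The pseudocount of 1 shrinks a change of Prkdc more than one of Mcm4. From Ctrl to Ep2 the mean FPKM fell by 28.6% for Prkdc and 27.0% for Mcm4, so a larger fall of Mcm4 is not shown. All 3 comparisons of neighbours were tested after their values were known.

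Proteins that handle MCM complexes outside the fork were mixed. Of 10 listed, 9 were tested, of which 3 fell and 2 rose at 20 J/cm2. These shares are near the 29.3% of all tested genes called lower and the 23.9% called higher in that comparison, so the counts set the list apart from other genes in neither direction. BC030867, the mouse gene for HROB, the loader of Mcm8 and Mcm9, measured 20.6, 18.9 and 17.7 FPKM in Ctrl and 12.1, 11.4 and 10.5 in Ep2, without overlap (log2 fold change -0.70 ± 0.07, adjusted p = 3.2e-05, limma). Lrr1 (-0.69, adjusted p = 0.000114) and Traip (-0.58, adjusted p = 0.000117), ubiquitin ligase components that mark the helicase for removal from DNA, fell as well. Vcp (0.17, adjusted p = 0.0104) and its cofactor Nploc4 (0.13, adjusted p = 0.0168), the segregase that pulls the marked helicase off, rose slightly. Mcmbp, which binds MCM subunits away from the chromatin, measured 25.7, 24.2 and 23.8 FPKM in Ctrl and 24.8, 24 and 23.7 in Ep2, and its log2 fold change was -0.02 (adjusted p = 0.696). For Ufd1, Faf1 and Mcm3ap the values were 0.11 (adjusted p = 0.0501), -0.07 and 0.02, and Mcmdc2, a meiotic relative, reached at most 0.0605 FPKM and was not tested.

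The genes that load and start the helicase fell in part. In origin licensing, 6 of 9 were lower in Ep2 than in Ctrl, against 29.3% of all tested genes, and none was higher, against 23.9%, with a median log2 fold change of -0.41. Cdc6, the ATPase that loads the ring with the origin recognition complex, measured 22, 22.7 and 23.5 FPKM in Ctrl and 7.46, 9.83 and 10.3 in Ep2 (-1.23 ± 0.09, adjusted p = 1.18e-05, limma), while Orc3 was level at 0.02 (adjusted p = 0.737). In helicase activation, 11 of 12 were lower beside the same 29.3%, with a median of -0.52. Recql4, a helicase needed to start forks, measured 10.9, 11.4 and 9.90 FPKM in Ctrl, 7.58, 8.24 and 8.18 in Ep1 and 3.14, 3.0 and 2.98 in Ep2, the groups apart at each dose (Ep2 -1.53 ± 0.06, adjusted p = 1.47e-06; Ep1 -0.38, adjusted p = 0.00917). The gene not called was Dbf4, the activator of the Cdc7 kinase that phosphorylates MCM proteins, at -0.11 (adjusted p = 0.150), and it was higher in Ep1 (0.25, adjusted p = 0.0354).

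All 14 replisome genes and all 14 genes of the G2 and M phases were lower in Ep2, beside 29.3% of all tested genes, with medians of -0.80 and -0.70. The replisome gene with the smallest adjusted p was Pold1, the catalytic subunit of DNA polymerase delta, at -1.22 ± 0.06 (adjusted p = 1.84e-06), and the G2/M gene with the smallest adjusted p was the proliferation marker Mki67, at -0.78 ± 0.04 (adjusted p = 1.84e-06). At 10 J/cm2, 4.97% of all tested genes were called lower and 6.32% higher. None of the licensing or G2/M genes was called at that dose, and Pold1 was the 1 replisome gene called (-0.25, adjusted p = 0.0261). With lists of this length, these counts do not set the lists apart from all tested genes. Of the 14 E2F and RB family genes and their partners, 7 were lower and 3 higher in Ep2, beside 29.3% and 23.9% of all tested genes. E2f7, a repressor of the family, had the smallest adjusted p among those lower (-0.66, adjusted p = 2.55e-05), and Myc, a growth regulator listed with them, among those higher (0.69, adjusted p = 8.58e-05). E2f3 was the 1 gene of that list called at the low dose, at 0.51 (adjusted p = 0.00795), beside the same 6.32% of all tested genes.

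**Figure D4:**
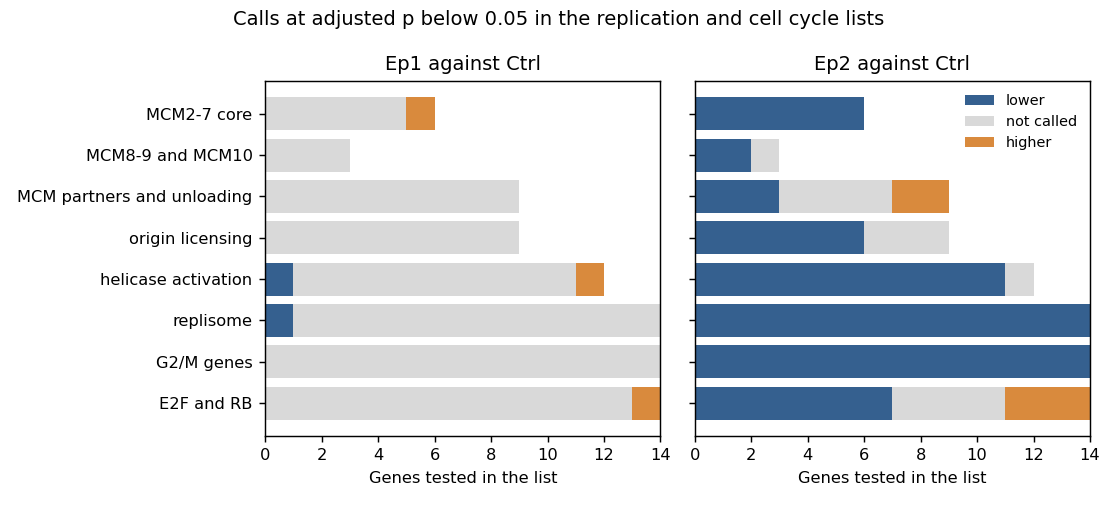
Number of tested genes in each list (x axis) that were lower, not called or higher at an adjusted p below 0.05 in Ep1 against Ctrl (left) and Ep2 against Ctrl (right). At the low dose nearly all genes are not called, and at the high dose all 14 replisome and all 14 G2/M genes are lower. Of all tested genes, 4.97% were lower and 6.32% higher at the low dose, and 29.3% were lower at the high dose.

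The 10 tested genes whose pattern over the 9 libraries was most like the mean pattern of Mcm2 to Mcm7 were Tcof1, Rangap1, Chaf1b, Clspn, Eftud2, Eif3b, Parp1, Mki67, Prpf31 and Rrm1, with Pearson's r from 0.999 for Tcof1 to 0.996 for Rrm1. Clspn (claspin), Chaf1b of the chromatin assembly factor and Rrm1 of ribonucleotide reductase act in DNA replication, while Tcof1 acts in ribosome synthesis and Eif3b in translation. These correlations describe 9 libraries that fall into groups and carry no test. Against the same mean pattern r was 0.996 for Mcm10, 0.904 for Mcm8 and -0.25 for Mcm9.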

How the data were processed

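Per the file headers, the authors deposited one FPKM value for each gene in each of 9 libraries, with the gene length in bases used to scale it, in a joint table and 9 equal single tables. The methods name GRCm39, the labels name mm8 and Bowtie 0.12.2, and 99.9% of 37620 gene positions overlap RefSeq GRCm38.p6, so positions follow the files and are taken as GRCm38. The counter is not given in the sources used here. Groups follow the treatment labels. FPKM times gene length gave whole fragments to within 0.05, which served for depth and voom. Genes at 1 FPKM or more in 3 or more libraries entered the tests, on log2(FPKM + 1) in one limma model of all libraries (trend and robust estimation, Benjamini-Hochberg adjustment per comparison), with calls at an adjusted p below 0.05. On simulated data for Ep2 against Ctrl, the script was checked before use. The members, lists and alternatives were chosen with earlier results of these data known. Named genes are all members, partners, divergent neighbours, the 10 most alike genes and, per list, the smallest adjusted p in each direction. Dbf4, E2f3 and Epcam, and genes naming a list's exceptions or markers, were added after their values were seen. The alternatives were a pseudocount of 0.1, no filter, a filter at 5 FPKM, median centring, a fit of only the compared groups, voom, a replicate block, a length and GC correction, a minimum fold change and the omission of each library. Software was R 4.3.3, limma 3.58.1, Python 3.11.15 and scipy 1.17.1.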

Additional observations from a re-analysis of the deposited data

How the results depend on the processing

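The 8 falls at 20 J/cm2, against Ctrl and against Ep1, were kept under each alternative run but the minimum log2 fold change of 0.6, which left 6 and 7 by construction, and the balance calls of all 6 ring genes were kept under each alternative run for them. The median log2 fold change of the members, -0.69, was -0.80 with a pseudocount of 0.1 and -0.79 with voom, and between -0.84 and -0.66 without 1 library, with -0.84 when Ep2 replicate 1 was left out. The 1 call at 10 J/cm2, Mcm4, became 0 with no filter, with the length and GC correction and with a minimum log2 fold change of 0.6, and the number of calls was 0 to 1 without 1 library. The Ep2 mean of the ring sum was 277 FPKM after median scaling. Small changes that were not called turned sign. For Ep1 against Ctrl, Mcm10 was -0.0055 with voom, -0.022 with the length and GC correction and -0.026 to 0.069 when a library was left out, and Mcm8 was -0.036 with that correction and -0.032 to 0.065 when a library was left out. For Ep2 against Ep1, Mcm9 was 0.042 with median centring, 0.014 with voom and -0.041 to 0.029 when a library was left out. The causes were not tested. The filter at 5 FPKM left Mcm9 out, so it has no value there. The replicate numbers did not pair the samples (correlations of same-numbered deviations from -0.056 to 0.074), and a fit with the replicate block called 8 members at 20 J/cm2, 1 at 10 J/cm2 and 8 between the doses, so that it changed no call. Depth limits Mcm8 and Mcm9, with as few as 226 fragments.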
